A study of Mus musculus with 7 samples.

Results

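The regions described here are the stretches of chromatin listed as open in TRF2KO muscle stem cells (MuSCs) and in no Control library. They were chosen by presence or absence alone: the MACS peaks of 4 ATAC-seq libraries were merged on chromosomes 1 to 19, and a merged region was kept when both TRF2KO libraries and neither Control library had a peak in it. Of 120444 merged regions, 1357 (1.13%) met the rule. They comprised 414 promoter regions, within 3 kb of an annotated GENCODE M21 transcript start, and 943 distal regions. The mirror class, listed in both Control and neither TRF2KO library, held 5378 regions (4.47% of the merged regions). A further 2901 regions had a peak in both TRF2KO libraries and in exactly 1 Control library, and 60354 had one in all 4.

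ATAC-seq was run on MuSCs sorted by FACS from hindlimb muscle of uninjured mice (labelled 0 h), as 2 biological replicates per genotype. TRF2KO cells came from mice carrying floxed Terf2 alleles and a tamoxifen-inducible Cre under the MuSC gene Pax7, so that Terf2 is lost in Pax7-expressing cells. The titles alone name the genotype, because the genotype field reads wild type for all 4 libraries, and whether the Control mice carried the Cre or received tamoxifen is not given in the labels. TRF2 CUT&Tag (2 libraries) and an IgG control (1 library) came from MuSCs labelled as taken 3 days after notexin injury of the tibialis anterior of wild-type mice, a different state from the ATAC cells. The methods of the study describe these cells as taken at an earlier time, from Cre-carrying control mice and from the gastrocnemius as well, and the labels are followed here. The peak calls come from cells in bulk, so more cells with a region open and a wider opening in each cell cannot be told apart.

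TRF2, encoded by Terf2, is the shelterin subunit that binds telomeric repeats and keeps chromosome ends from being read as broken DNA. In many cell types its loss exposes the ends, activates the ATM kinase and stabilises p53, a transcription factor that binds a pair of short decamers and switches on genes such as Cdkn1a and Mdm2. For MuSCs without TRF2, the study reported no DNA damage response at telomeres and no rise in ATM phosphorylation under the conditions assayed. It also reported no rise in p53 transcript and no rescue of regeneration by p53 deletion. In MuSCs, enhancers commonly carry the E-box bound by MyoD and other muscle helix-loop-helix factors, and AP-1 sites, bound by Fos and Jun dimers, mark enhancers that open when cells leave quiescence.

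The p53 pattern was in 13 of the 1357 regions (0.958%), among them 4 of the 5 strongest. The sites are shown first because of that rank, though nearly all members held no such site. The lines below give the reference sequence (GRCm38, plus strand) at 9 TRF2KO-only regions whose summit window, the 200 bp centred on the highest peak, held the p53 pattern, and at another region, in Mdm4, with 1 mismatch. They are the 5 strongest regions and 5 weaker ones with and without related surroundings. Each run is 50 bases long, with the nearest protein-coding gene as its name, and capitals mark the bases that match 2 adjoining p53 decamers.
Gli2, chr1:119125780-119125829: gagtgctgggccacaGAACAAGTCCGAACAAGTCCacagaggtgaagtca
Map3k7, chr4:31941667-31941716: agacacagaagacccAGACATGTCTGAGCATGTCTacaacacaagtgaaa
Vldlr, chr19:27270557-27270606: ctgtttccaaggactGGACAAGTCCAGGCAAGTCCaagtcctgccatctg
Mdm4, chr1:133020280-133020329: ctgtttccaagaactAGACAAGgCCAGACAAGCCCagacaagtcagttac
Tulp4, chr17:6128265-6128314: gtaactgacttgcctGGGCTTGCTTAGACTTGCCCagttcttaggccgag
Kctd12, chr14:102731951-102732000: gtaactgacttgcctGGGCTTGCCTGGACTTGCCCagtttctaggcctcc
Dtnb, chr12:3548026-3548075: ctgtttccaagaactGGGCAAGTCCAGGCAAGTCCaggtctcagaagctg
Rtn4, chr11:29680159-29680208: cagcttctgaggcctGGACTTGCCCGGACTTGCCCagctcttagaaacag
Zbtb38, chr9:96800543-96800592: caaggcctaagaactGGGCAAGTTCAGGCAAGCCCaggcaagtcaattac
Pepd, chr7:34974053-34974102: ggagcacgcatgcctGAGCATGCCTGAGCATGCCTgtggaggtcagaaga

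Several of these sites lay in related surroundings. Over 21 TRF2KO-only sites, the 13 with the exact pattern and the 8 strongest others with 1 or 2 mismatches, the 15 bases on either side of the pattern were compared on both strands. Of 210 pairs, 8 had at least 20 of the 30 flanking bases alike, against a median of 9, and these pairs joined 7 sites. The Dtnb and Rtn4 sites shared 27 flanking bases on opposite strands, as did the Tulp4 and Zbtb38 sites. The Tulp4 and Kctd12 sites shared 25 on the same strand. In 10 of the 13 windows with the exact pattern some bases were soft-masked as repeats in the reference. The share of other windows with any masked base is not given. In 2 of the 13 the masked part made up at least 50% of the window, beside 56 of all 1357 members (4.13%).

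What a missing peak means depends on depth. A MACS fold is the pileup of fragments at a summit over the background, each with 1 added, and an unlisted region is one that did not pass the caller's threshold, not closed chromatin. Solved from fold and p-value, the background was 3.35 fragments in Control replicate 1, 4.56 in Control replicate 2, and 3.37 and 3.41 under TRF2KO. The lowest summit pileup listed was 10, 12, 10 and 10 fragments in the same order. The Control lists were also longer, with 87394 and 98558 peaks against 83039 and 82556. The targeted gene was checked first: the fold over the Terf2 start was 54.3 and 48.4 in Control, beside 21.5 and 18.6 in TRF2KO. All 8 MuSC markers, Pax7 and Cdh15 among them, had a peak over a start in every library, with median folds of 56.4, 47.1, 47.0 and 48.2. Of these, Itga7, which encodes the integrin used in the sort, had folds of 73.4 and 68.03 in Control and of 35 and 32.5 in TRF2KO. Of 6 blood markers, 5 had none in any library, Ptprc included, whereas 2 of 5 endothelial and 3 of 4 mural markers had one in all 4. So did 2 of 5 fibro-adipogenic, 2 of 2 tendon and 1 of 2 Schwann cell markers, but no adipocyte marker. The fibro-adipogenic marker Pdgfra had folds of 48.3 and 43.2 in Control and of 48.9 and 44.03 in TRF2KO. Those of Dpt, another such marker, were 117.8 and 34.2 in Control and 28.1 and 26.3 in TRF2KO.

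Most TRF2KO-only regions were weak. The median fold was 3.89 in TRF2KO replicate 1 (from 2.52 to 31.8) and 3.63 in replicate 2 (from 2.5 to 26.8), beside 12.8 and 11.8 for regions listed in all 4 libraries. Median summit pileups were 16 and 15 fragments. In 542 regions (39.9%) the lower of the pair of pileups was at most 13, and 166 regions had a lower -log10 q under 2, the lowest being 1.39. Ranked by the lower of the TRF2KO folds, 713 regions were under 3.5, 486 between 3.5 and 5, 125 between 5 and 7, and 33 at 7 or above. Over the members, the log2 folds of the replicates had a Pearson r of 0.71 and the folds a Spearman rho of 0.58, as a description of values that share a threshold. Just outside the rule, the 2901 regions with a peak in 1 Control library had a median lower TRF2KO fold of 3.86 and a median Control fold of 4.14. Another 13307 regions were listed in 1 TRF2KO library and no Control library. These folds chose the regions, so no test was made on them.

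**Figure D1:**
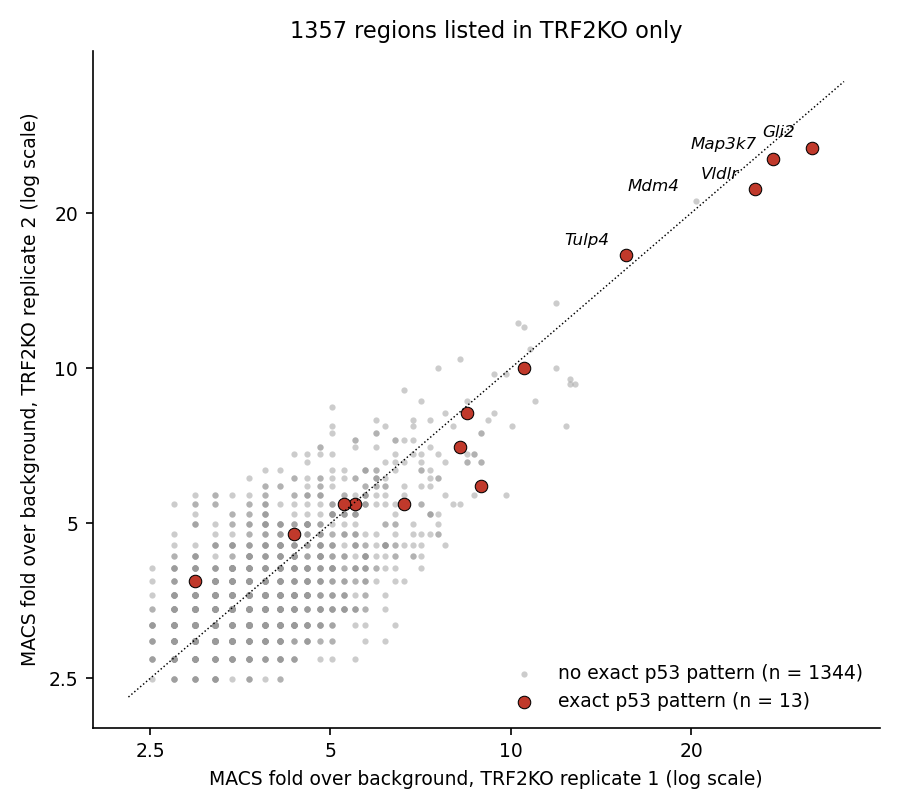
MACS fold over background of the 1357 TRF2KO-only regions in TRF2KO replicate 1 (x axis) and replicate 2 (y axis), both on log scales, with a dotted line at equal folds. Red points are the 13 regions whose summit window holds the exact p53 pattern, and 4 of the 5 points farthest to the upper right are red, the remaining one being Mdm4 with 1 mismatch.

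The p53 pattern was met most often at the very top of the list. The exact pattern, 2 decamers with no base between, occurred in 26 of all 120444 summit windows, and 13 of those 26 were TRF2KO-only (50%, exact 95% interval 29.9 to 70.1%), beside the 1.13% of all regions in that class. A further 5 were listed in 1 TRF2KO library alone, 4 in all 4 libraries, 1 in both TRF2KO and 1 Control library, and 1, in Sptbn4, in Control only. The remaining pair had a peak in 1 library of each genotype. Near Serpine2 it was higher in Control (8.10 in Control replicate 2, 4.31 in TRF2KO replicate 2), with GoPeaks regions in both Control libraries and neither TRF2KO library, and in Nell1 the folds were 2.99 in Control replicate 1 and 4.09 in TRF2KO replicate 2. The intervals cover counting error alone and take each region as independent of the others. Among the 1357 regions ranked by the lower TRF2KO fold, the exact pattern was in 4 of the top 5, 5 of the top 10 and 7 of the top 33. With up to 2 mismatches it was in 10 of the top 33, so most regions at a fold of 7 or above did not hold it. Among Control-only regions ranked in the same way by Control fold, the exact pattern was in 0 of the top 100. A match with up to 2 mismatches was in 1 of them. Over all windows the exact pattern was in 0.0216% and a match with up to 2 mismatches in 0.785%. The counts of 0 and 1 in 100 Control-only regions are close to those shares.

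The region with the highest folds lay between genes at chr1:119125584-119126243, 71965 bp from the nearest start of Gli2, a transcription factor of the Hedgehog pathway. Its folds were 31.8 and 26.8 in the TRF2KO libraries, from pileups of 138 and 117 fragments, and neither Control library listed it. The next, at chr4:31941579-31942189, lay 21908 bp from Map3k7, which encodes the kinase TAK1, and had folds of 27.4 and 25.4. The region at chr19:27270289-27270914, 31515 bp from Vldlr (a lipoprotein receptor), followed with 25.6 and 22.2. In all of these 3 regions the TRF2KO folds were several times the lowest listed value and the replicates lay close together. A region in an intron of Tulp4, chr17:6127679-6128565, had folds of 15.6 and 16.6. The region 249362 bp from Kctd12 had 10.5 and 9.99. The others with the exact pattern had lower TRF2KO folds between 2.97 and 8.17. They were nearest to Rrn3 (an RNA polymerase I initiation factor), Pepd, Dtnb, Ier5, Zbtb38, Rtn4, Ppcdc and Myc, the last at 479423 bp.

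Other callers, which read the same libraries as the rule, listed most of these 13 regions in the same way. GoPeaks had a region in both TRF2KO libraries at 12 of the 13, beside 22.2% of all members. That support went with fold over all members, at 116 of 125 from 5 to 7 and 33 of 33 at 7 or above. It is therefore no separate evidence for these regions. No GoPeaks or SEACR region in either Control library was listed at 11 of the 13, beside 803 of the 1357 members. The exceptions were the Ier5 region, with SEACR regions in both Control libraries, and the Ppcdc region, with 1 in Control replicate 2. The pattern's centre lay a median of 44 bases from the summit, at most 86. No TRF2 CUT&Tag peak of either library overlapped any of the 13. Such a peak overlapped only 3.46% of all 1357 members, so its absence from 13 regions says little about these sites in particular. Of the 13, 2 were promoter regions.

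**Figure D2:**
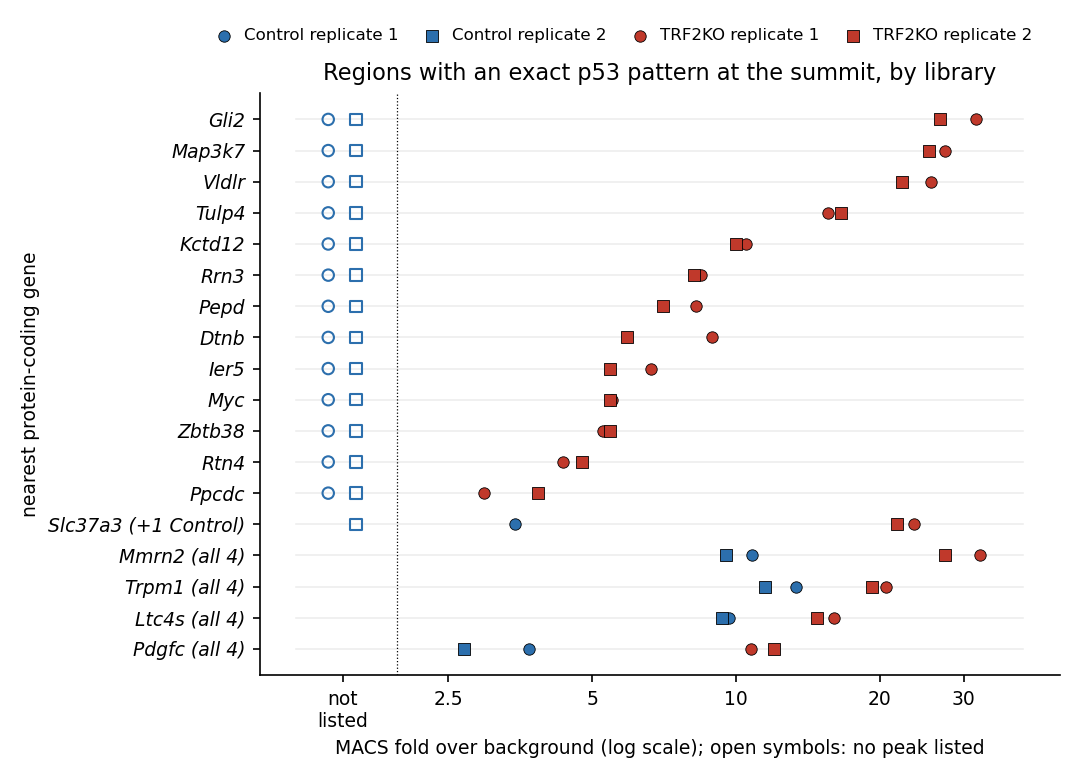
MACS fold over background (x axis, log scale) in the 4 libraries at the 18 regions with the exact p53 pattern that both TRF2KO libraries list, named by the nearest protein-coding gene. Blue marks Control, red marks TRF2KO, circles replicate 1 and squares replicate 2, and open symbols left of the dotted line stand for no listed peak. The rule left 13 of them without a Control fold, and at the 5 others both TRF2KO folds exceed every listed Control fold.

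Among regions listed in all 4 libraries, which the rule had not chosen, those with the exact pattern went in the same direction. The comparison is not free of the folds, because each window was centred on the highest peak of any library. A site under a TRF2KO summit is thus found more readily where a TRF2KO fold is the highest. The size of this effect was not tested. Outside the rule as a whole the direction was not uniform, since the Sptbn4 and Serpine2 regions given above went the other way. In the 4 regions with the exact pattern that all 4 libraries listed, both TRF2KO folds were above both Control folds, without overlap. In an intron of Mmrn2 the Control folds were 10.8 and 9.54 and the TRF2KO folds 32.5 and 27.5. In an intron of Pdgfc, which encodes a platelet-derived growth factor, they were 3.68 and 2.70 against 10.7 and 12.0. The regions near Ltc4s (9.67 and 9.36 against 16 and 14.8) and Trpm1 (13.3 and 11.5 against 20.6 and 19.3) differed less. Both TRF2KO folds lay above both Control folds in 18.5% of all regions listed in 4 libraries. The single region shared with 1 Control library, a class defined by peaks in both TRF2KO libraries, lay 60206 bp from Slc37a3. Its fold was 3.45 in Control replicate 1 and 23.6 and 21.8 in the TRF2KO libraries.

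The form with 0 to 13 bases between the decamers was in 35 regions listed in all 4 libraries, the 4 above included. In 11 of the 35 (31.4%) both TRF2KO folds were above both Control folds and in 7 both were below. The form with no spacer was added after seeing the data.

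Allowing 1 mismatch in the form with no spacer gave a larger set. Of 51 regions listed in all 4 libraries with exactly 1 mismatch, 29 (56.9%, interval 42.2 to 70.7%) had both TRF2KO folds above both Control folds and 6 had both below. Over all 60354 such regions the shares were 18.5% above and 30.04% below. The median log2 ratio of the mean TRF2KO fold to the mean Control fold was 1.13 for 0 mismatches (n = 4), 0.42 for 1 (n = 51), 0.02 for 2 (n = 396) and -0.06 for 3 (n = 2684), beside -0.05 over all. The order thus followed the number of mismatches down to the value of all regions, in windows whose position used these same folds. One of the 51, 6603 bp from a start of Mdm2, the ubiquitin ligase that degrades p53 and is itself a p53 target, had folds of 14.0 and 12.4 in Control and 58.3 and 52 in TRF2KO. Another, 7960 bp from a start of Trp73, which encodes the p53 relative p73, had 8.51 and 9.0 against 19.7 and 19.1. These 2 were named after their values were seen.

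**Figure D3:**
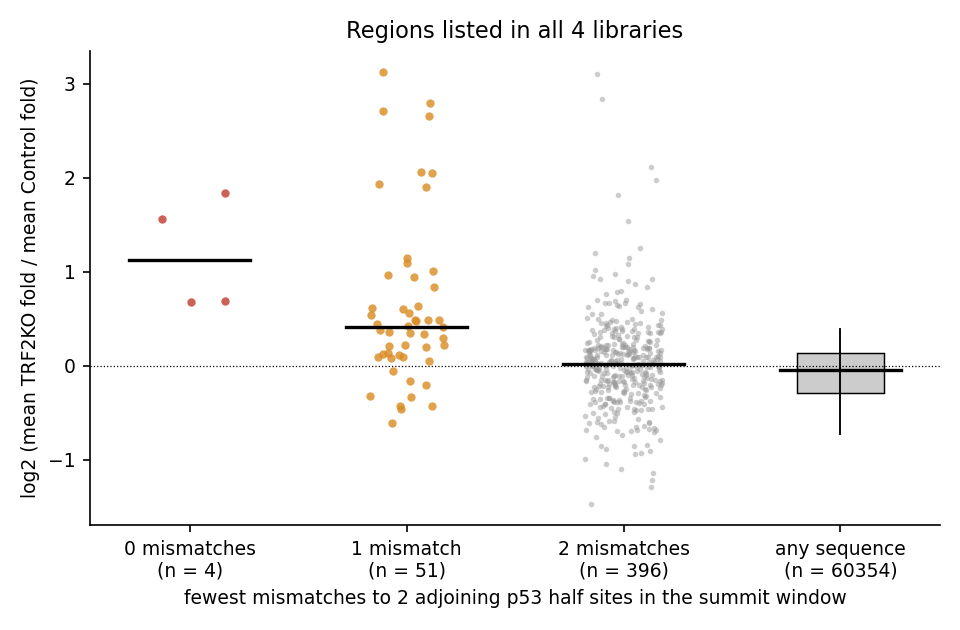
Log2 ratio of the mean TRF2KO fold to the mean Control fold (y axis) for regions listed in all 4 libraries, by the fewest mismatches to 2 adjoining p53 decamers in the summit window (x axis). Points are regions, thick lines are medians, and the box and line at the right give the quartiles and the 5th to 95th percentiles of all 60354 regions. The medians fall from 1.13 to 0.42 and 0.02 as mismatches increase, beside -0.05 for any sequence.

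Among the TRF2KO-only regions, the form with 0 to 13 bases between the decamers was found in 16 TRF2KO-only windows (1.18%, interval 0.675 to 1.91%). It was in 0.0764% of all windows, 0.112% of Control-only windows, 0.0580% of those listed in all 4 libraries and 0.0689% of those shared with 1 Control library. Its share was highest at folds of 5 and above, and in the 2 fold ranges below it rested on 2 and 1 regions. It was 0.281% under a lower fold of 3.5, 0.206% from 3.5 to 5, 4.80% from 5 to 7 (6 of 125) and 21.2% at 7 or above (7 of 33, interval 8.98 to 38.9%). With the rule applied without Control replicate 1 or 2, the class held 2640 or 3080 regions and 17 of either set had the pattern (0.644 and 0.552%). Without TRF2KO replicate 1 or 2 it held 8594 or 7699, with 20 and 22 (0.233 and 0.286%). The great majority of the TRF2KO-only regions held no such pattern in this window, which says nothing about p53 itself.

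AP-1 and E-box motifs were found in unlike shares of TRF2KO-only and Control-only windows. The AP-1 motif (TGANTCA, both strands) was in 232 TRF2KO-only windows (17.1%, interval 15.1 to 19.2%), in 10.2% of Control-only windows (9.38 to 11.0%), in 13.8% of those listed in all 4 libraries and in 11.9% of all windows. The E-box bound by MyoD (CAGCTG) showed the opposite order. It was in 247 TRF2KO-only windows (18.2%, interval 16.2 to 20.4%), in 34.7% of Control-only windows (33.4 to 36%) and in 25.8% of all windows. Regions shared with 1 Control library resembled the TRF2KO-only ones in both motifs, with 16.6% and 19.2%, so neither share was particular to regions absent from both Control lists. The AP-1 share depended on a listing in both TRF2KO libraries. It was 8.86% with the rule applied without TRF2KO replicate 1 and 11.6% without replicate 2, both under the 11.9% of all windows, and the E-box share was 16.3 and 17.9%. AP-1 was in 11.8% of members under a fold of 3.5, in 22.4% from 3.5 to 5, in 26.4% from 5 to 7 and in 18.2% of the 33 at 7 or above. The E-box share was between 17.6% and 18.9% below a fold of 7 and was in 4 of the 33 above it. AP-1 matches at 2 strong distal regions, with the motif in capitals, read as follows on the plus strand.
Vldlr, chr19:27274551-27274587: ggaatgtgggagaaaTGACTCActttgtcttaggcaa
Ccng1, chr11:40790536-40790572: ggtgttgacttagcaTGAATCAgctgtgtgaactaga

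**Figure D4:**
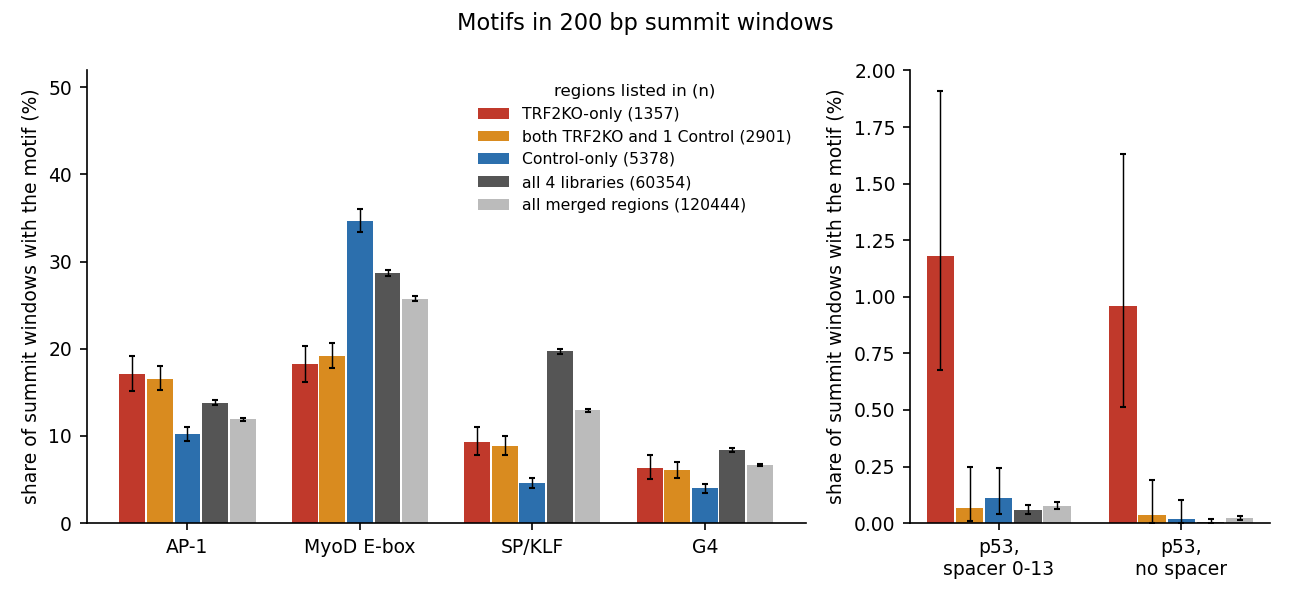
Share of 200 bp summit windows with each motif (y axis, percent) in 5 classes of regions, with exact 95% binomial intervals as error bars. The left panel shows AP-1, the MyoD E-box, the SP/KLF motif and the G4 pattern and the right panel the p53 pattern with and without a spacer on its own scale. TRF2KO-only regions stand at 17.1% for AP-1 and 18.2% for the E-box, against 10.2% and 34.7% of Control-only regions.

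**Figure D5:**
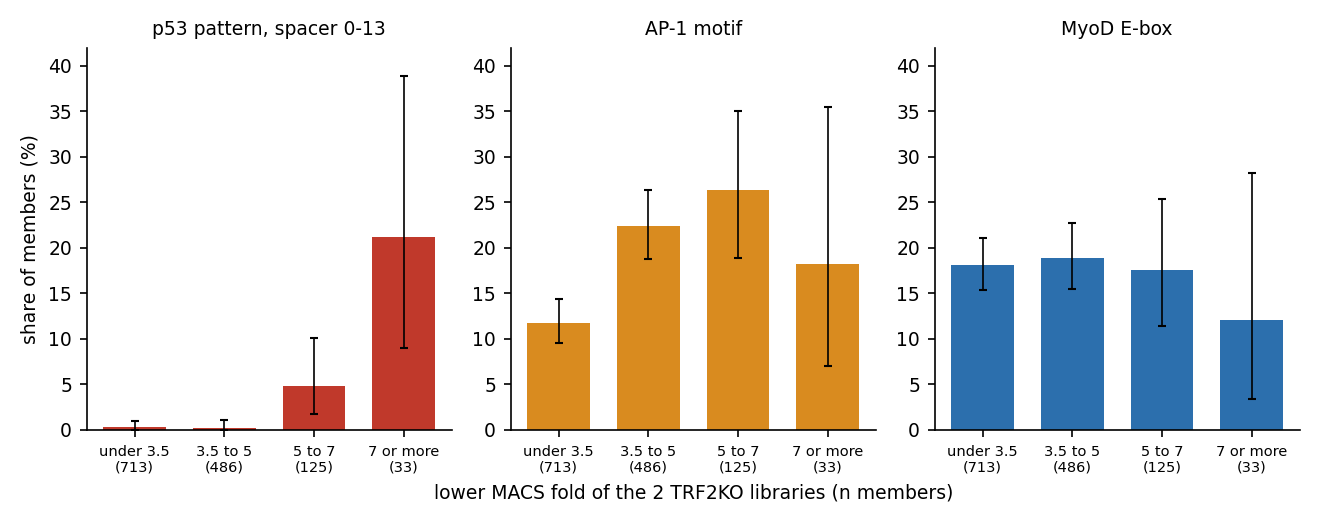
Share of TRF2KO-only regions with the p53 pattern, the AP-1 motif and the MyoD E-box (y axis, percent) by the lower MACS fold of the TRF2KO libraries (x axis, number of regions in brackets), with exact 95% binomial intervals. The p53 share is 0.281% under a fold of 3.5 and 21.2% at 7 or above.

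Other motifs are given for comparison. The SP/KLF motif (GGGCGG) was in 9.36% of TRF2KO-only windows, 4.61% of Control-only windows and 19.7% of those listed in all 4 libraries, beside 12.9% of all. The G4 pattern, a guanine-rich sequence that can fold into a stacked structure, was sought as 4 runs of 3 or more G with up to 7 bases between them. It was in 6.34% (interval 5.10 to 7.77%), beside 3.98%, 8.40% and 6.67%. The RUNX motif (TGTGGT) was in 16.7%, 16.1%, 14.1% and 15.3% in the same order, and the TEAD motif (GGAATG) in 14.4%, 14% and 12.9%, with 12.9% of all. No TRF2KO-only region held 3 consecutive telomeric units. Median GC content of the windows was 51% in TRF2KO-only and Control-only regions and 53.5% in those listed in all 4.

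Promoter and distal regions were close in fold. Promoter regions made up 30.5% of the TRF2KO-only class (interval 28.1 to 33%), 24.9% of Control-only regions (23.8 to 26.1%) and 40.6% of regions listed in all 4 libraries. A start lay inside the region in 91 of the 414. The nearest start belonged to a protein-coding gene in 275, and in 206 of these (74.9%) some start of that gene already lay in a region listed in all 4 libraries. Median folds were 3.66 and 3.63 in promoter regions and 4.12 and 3.86 in distal ones. Among distal regions the summit lay between genes in 414 (43.9%), in an intron in 478 (50.7%) and in an exon in 51 (5.41%), beside 36.5%, 57.8% and 5.77% in Control-only regions. AP-1 was in 10.9% of the promoter and 19.8% of the distal windows.

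The strongest promoter regions seen by a second caller in both TRF2KO libraries and by none in Control began with Mdm4, which encodes an inhibitor of p53. This region, chr1:133020012-133020739, lay in an intron 1154 bp from a start and had folds of 20.4 and 21.1. Next came a region over a start of Dnm3 (a dynamin), with 11.9 and 13.4, whose best p53 match had 2 mismatches. The others were near Ms4a6b (8.69 and 6.81), Gm21816 (8.46 and 6.58), Gm18856 within B3galnt2, a glycosyltransferase of dystroglycan (7.32 and 6.36), Sdsl (7.09 and 6.36), Rbms3 (6.18 and 6.13) and 4930597A21Rik (5.95 and 6.36). Among distal regions chosen in the same way, those not yet described were near Steap4 (10.5 and 12.0), in an intron of Stx11 (12.8 and 9.31) and a second region by Vldlr, 35662 bp from it (9.38 and 9.76). Each had at least 5 mismatches to the p53 decamers in its window.

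Support from the other callers was partial. GoPeaks had a region in both TRF2KO libraries in 301 members (22.2%, interval 19.996 to 24.5%), with 39.0% and 33.5% in the single libraries and 6.78% and 6.26% in the Control libraries. SEACR gave 24.5% and 25.2% in TRF2KO and 22% and 27.7% in Control, and so listed these regions about as often in either genotype. In all, 554 members (40.8%, interval 38.2 to 43.5%) had a GoPeaks or SEACR region in a Control library. In 195 (14.4%) another caller had a region in both TRF2KO libraries and none in Control, and in 346 (25.5%) neither caller listed any of the 4 libraries. GoPeaks support in both TRF2KO libraries went with fold, at 4 of 713 under 3.5 and 33 of 33 at 7 or above, whereas a region in Control by another caller was about as frequent at the top (15 of 33, 45.5%) as at the bottom (306 of 713, 42.9%). The deposited consensus lists held 609 members in TRF2KO and 418 in Control.

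Genes of the p53 pathway were next to several of the regions. Of 23 p53 and DNA damage genes on these chromosomes, 7 were the nearest protein-coding gene of a TRF2KO-only region, beside 5.69% of 20807 coding genes, and 5 were nearest to a Control-only region, beside 16.9%. Genes with wide surroundings collect more regions, which these shares do not take into account. The region nearest Cdkn1a, the cell cycle inhibitor p21, lay 9569 bp from its start and 1442 bp from that of Trp53cor1, a long noncoding RNA of the p53 response, with folds of 10.3 and 12.3. SEACR listed it in Control replicate 2. A region 10816 bp from Mdm2 had 11.0 and 8.62, with a GoPeaks region in Control replicate 1. The region 35051 bp from Ccng1 (cyclin G1) had 7.32 and 7.04 with no Control region by any caller. Those of Zmat3 (4.80 and 3.86), Sesn2 (4.12 and 3.63), Gadd45a (4.57 and 3.18) and Plk2 (3.43 and 4.09) were weaker. None of these 7 held the p53 pattern in its window, with at least 5 mismatches in each.

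Other lists had shares above the 5.69% of coding genes too, so the p53 list was not particular in this. Of 29 genes of MuSC surface and quiescence, 7 (24.1%) were nearest to a TRF2KO-only region, beside 30.4% of the p53 list, and 22 (75.9%) to a Control-only region, where all coding genes stood at 16.9%. The 7 were Cd34 (6.4 and 5.45), Col5a1 (4.57 and 3.63), Cxcr4 (4.35 and 2.95), Notch1 (3.66 and 3.40), Megf10 (3.43 and 2.95), Tenm4 (3.20 and 3.86) and Cdh15 (2.97 and 3.18), and the Cd34 region lay 56341 bp away. Of 21 genes of myogenic commitment and the sarcomere, Mef2d alone had a TRF2KO-only region, in an exon (2.97 and 3.63), against 11 with a Control-only region. Of 19 AP-1 and early response genes, Myc alone did, with 2 regions at 163007 and 479423 bp, against 6. Of 18 extracellular matrix and fibrosis genes, Fn1 (5.26 and 5.22, at 270633 bp), Timp3 (3.89 and 5.45), Col1a2 (5.26 and 3.86) and Col4a2 (2 regions) did (22.2%), against 13 (72.2%). None of the 7 shelterin genes did, against 2 with a Control-only region. Of the markers of other cells, Rgs5 and Abcc9 (mural cells), Cdh5 (endothelium) and Ly6a (fibro-adipogenic cells) were nearest to 7 TRF2KO-only regions, with lower folds from 3.20 to 5.49. These were 2 of 4 mural, 1 of 5 endothelial and 1 of 5 fibro-adipogenic markers. Nearest to a Control-only region were 0 of 4 mural, 3 of 5 endothelial (Cdh5 among them) and 2 of 5 fibro-adipogenic markers. So were 2 of 2 tendon, 1 of 2 Schwann cell and 1 of 6 blood markers, of which none was nearest to a TRF2KO-only region. The sort had selected against CD45, CD31, CD11b and Sca1, the product of Ly6a. The part of such cells in the results was not tested.

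TRF2 itself was rarely seen at these regions. A CUT&Tag peak of both TRF2 libraries overlapped 13 of the 1357 (0.958%, interval 0.511 to 1.63%), beside 0.614% of Control-only regions, 1.10% of those shared with 1 Control library and 10.9% of the wider and stronger regions listed in all 4. The IgG library overlapped 2. The 5 strongest of the 13 lay near Ttc27 (4.57 and 4.77), Tob1 (4.35 and 4.99), Pdgfb (4.57 and 4.31), Dio2 (4.12 and 4.31) and Rcl1 (4.12 and 4.99). All 5 held an AP-1 motif in the window, beside 17.1% of all members. No count over all 13 is given, so no trait of regions with a TRF2 peak is drawn from these 5.

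The regions were spread over all 19 chromosomes. They made up 0.810% of the merged regions on chromosome 12 and 1.44% on chromosome 14, the lowest and highest shares. Of 502 bins of 5 Mb, 83 held none and the median was 2. The fullest bin by number, 145 to 150 Mb of chromosome 4, held 27 of its 661 regions (4.08%), and the next fullest 17. By share, small bins stood higher, such as 85 to 90 Mb of chromosome 2 with 3 of 32 (9.38%) and 40 to 45 Mb of chromosome 14 with 6 of 69 (8.70%). In the chromosome 4 bin, lower folds ranged from 2.72 to 4.77. Soft-masked bases made up a mean of 32.3% of the summit windows of that chromosome 4 bin, beside 11.7% over all members. The 3 genes with the most members there were Gm13230 with 4, and Platr16 and Gm13036 with 3 each, in a cluster of zinc finger genes and pseudogenes (Zfp990 and Zfp987 among them). Genes of this cluster have close copies, so the copy to which a call belongs is uncertain. Elsewhere Tns1, Akap13 and Arhgef17 had 3 regions each, with lower folds between 2.5 and 4.54. Within 5 Mb of Terf2 the class held 8 of 730 merged regions (1.10%), and within 5 Mb of Pax7, whose promoter drives the Cre, 14 of 1375.

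Distances from members to Control MACS peaks are given without a share for other sites. A Control MACS peak was within 500 bp of 181 members (13.3%), within 5 kb of 847 (62.4%) and within 50 kb of 1308 (96.4%). The median distance to a region listed in all 4 libraries was 5943 bp for members and 4755.5 bp for Control-only regions. Over all merged regions outside that class it was 4453 bp, so members were not closer than other regions. Members were narrow, with a median width of 382 bp, close to the 393 bp of Control-only regions and under the 983.5 bp of regions listed in all 4 libraries. Another member lay within 10 kb of 80 of them.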

How the data were processed

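The authors aligned reads to mm10 with Bowtie2 2.5.4 and removed duplicates and non-unique reads with Picard 3.1.1 and SAMtools 1.10, per the labels and the study's methods. They called peaks per library with MACS3 3.0.2, SEACR 1.3 and GoPeaks and built a consensus per genotype with DiffBind 3.10.1. The deposited MACS lists give a fold over background (a ratio) and -log10 p and -log10 q values per peak. The deposited SEACR lists give a signal and the consensus lists the authors' score, of which only positions were used here. Depth per library is not given in the sources used here, so the pileup and background were solved from the fold and the Poisson p-value of each peak (solved for 84.1 to 85.5% of peaks, those with -log10 p under 200). The solver and the pattern search were tested on simulated data.

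Peaks sharing at least 1 bp were merged on chromosomes 1 to 19. Starts and exons came from GENCODE M21, sequences from GRCm38, with 23 motif patterns searched in 200 bp at the summit of the highest peak. Shares carry exact Clopper-Pearson 95% intervals. No test was run, since the rule used all 4 libraries. Named regions were the 8 promoter and 8 distal members with the highest lower TRF2KO fold among those another caller listed in both TRF2KO and in no Control library, the 3 strongest of all members, the 6 genes with the most members, members nearest to genes of fixed lists, and the 5 strongest with TRF2 peaks. The members, lists and motifs were chosen with earlier results of these data known. The spacer-free p53 pattern, its mismatches and flanks were added after seeing the data. Python 3.11.15, pandas 2.3.3, SciPy 1.17.1 and pysam 0.24.0 were used.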

Additional observations from a re-analysis of the deposited data

How the results depend on the processing

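No paired analysis was possible because no result here comes from a test. The number of TRF2KO-only regions (1357, with 414 promoter and 943 distal) moved to 443, 100 and 343 with -log10 q of at least 5 in the TRF2KO libraries, to 811, 203 and 608 with that threshold in all 4, to 803, 203 and 600 without regions another caller listed in Control, to 711, 189 and 522 with GoPeaks and to 491, 234 and 257 with SEACR. Without 1 library the counts ranged from 2640 to 8594, 746 to 2846 and 1894 to 5748, with totals of 2640 and 3080 without Control replicate 1 and 2, and of 8594 and 7699 without TRF2KO replicate 1 and 2. A promoter limit of 1 kb gave 228 promoter regions (16.8%). With -log10 q of at least 5 in TRF2KO the promoter share was 22.6%, GoPeaks support 62.1%, the median GC content 48.5%, AP-1 26.2% and the p53 pattern 3.16%. Equal list lengths, 82556 peaks each, gave 1911 regions (598 promoter, 1313 distal) and moved GoPeaks support to 19.8%, and merging within 500 bp moved the share with another caller in Control to 35.9%. Leaving out 1 library moved the promoter share to between 28.3 and 33.1%, GoPeaks support to between 11.2 and 28.6%, the share with another caller in Control to between 34.1 and 45.1%, the TRF2 share to between 0.431 and 1.07%, the median GC content to between 50.5 and 52.5%, AP-1 to between 8.86 and 17.3%, the E-box to between 16.3 and 19.4% and the p53 pattern to between 0.233 and 0.644%. A TRF2 peak in either library gave 3.46%. In 100 and 500 bp windows AP-1 was 8.99 and 25.6%, the E-box 10.2 and 30.7%, and the p53 pattern 0.442 and 1.47%, and with up to 2 mismatches the p53 share was 2.73%. The p53 and E-box alternatives were chosen after seeing the data. Leaving out a library loosens the rule by construction, and every other cause was not tested. At a lowest listed pileup of 10 to 12 fragments, presence and absence of weak peaks is limited by depth.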

Other observations

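A set of TRF2KO-only promoter regions covered the start of a protein-coding gene that had no start in a region listed in all 4 libraries. There were 27 such regions among the 59 TRF2KO-only regions with a coding start inside. The 5 with the highest lower TRF2KO fold, chosen after their values were seen, were those of Scn8a, a neuronal sodium channel (6.4 and 5.22), Apon, an apolipoprotein (7.55 and 4.77), Fbxo41 (4.35 and 4.31), Mctp2 (4.12 and 4.09) and Cd80, a costimulatory ligand of immune cells (7.09 and 4.09). None of these 5 had a GoPeaks or SEACR region in a Control library. The genes of the 27 came from no fixed list, and no share or theme is drawn from them.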
